A study of Acorus calamus with 8 samples.

Results

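Leaves of cut explants were compared with leaves of uncut explants of sweet flag (Acorus calamus) at a month after cutting, with 1 RNA library a side. Of 24601 assembled features that are not ribosomal RNA (24636 in all), 5522 had at least 50 counts in either library and are read here. Every explant of the series, cut or uncut, was cultured on MS medium with a pair of synthetic auxins, 2,4-D at 2 mg/l and NAA at 0.5 mg/l. In cut explants the height of the leaves was reduced by cutting; in uncut explants it was left, and the labels count time from the cutting for both. The series holds 8 libraries, from leaf and rhizome, from cut and uncut explants, taken 4 days or a month after cutting, with 1 library in each group, so differences have no replicate check and no test. The labels do not say how many explants a library pools, nor how the explants at a month relate to those at 4 days. The labels allow for oligo dT selection as well as for rRNA depletion of the total RNA, and do not tell which of them a given library had.

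Sweet flag is a wetland monocot with sword-shaped leaves that grow from a creeping rhizome. When a leaf loses its upper part, cells at the wound make jasmonate from membrane lipids and abscisic acid from carotenoids, both of which call up genes of defence and of water shortage, and the remaining leaf bases go on growing from the base. Leaves also export nitrogen, sulphur and metals as they age. Asparagine synthetase makes an amide in which nitrogen is exported, and metallothioneins hold copper and zinc.

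The cut leaf library held 9637899 counts and the uncut one 11555735. Ribosomal RNA features took 81.6% and 74.98% of them, organelle features 10.4% and 10.3%, and the other features, called nuclear, 7.97% [7.95, 7.99] and 14.7% [14.7, 14.7] (exact Clopper-Pearson 95% intervals for counting error only). Without ribosomal RNA, 1772071 counts remained in cut leaf and 2891666 in uncut leaf. After scaling, 1 count in cut leaf stood for 2.82 in uncut leaf, so 50 counts in cut leaf match 141 in uncut leaf. Only 2198 features reached 50 counts in cut leaf, against 5476 in uncut leaf. Leaf markers (Rubisco small subunit, Rubisco activase, light-harvesting and photosystem proteins) summed to 36663 scaled counts in cut and 28227 in uncut leaf, against 971 to 4425 in the 4 rhizome libraries. Of the 66 features of that list, 7 had no counts in cut and 5 in uncut leaf. Both libraries thus carry leaf markers at levels above the rhizome. Scaled counts are counts divided by the library scale, with uncut leaf at a month as 1.

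By the size rule used here, at least 4-fold after scaling with the lower library counted as at least 3 counts, 74 features were higher in cut leaf (1.34% of those read) and 129 were lower (2.34%), 203 in all (3.68%). At least 2-fold, 325 were higher (5.89%) and 716 lower (13.0%). These shares over all features are the base beside which the counts of each list below are read. The median log2 ratio over all 5522 features was -0.16. Just inside the limit lay a phosphoglucan, water dikinase (Unigene108, 4.01-fold higher) and a LECRK3-like kinase (CL1221.Contig1, 4.05-fold lower), and just outside a pherophorin-like protein (CL1520.Contig1, 3.95-fold higher) and a LOW PSII ACCUMULATION protein (CL1457.Contig2, 3.96-fold lower). Of the 129 lower features, 12 had 0 counts in cut leaf and 31 had 1 to 3. With the filter matched for depth, which asks 50 counts of cut leaf or the same scaled level of uncut leaf, 2627 features were left, 74 of them higher and 37 lower, with a median of 0.05. With the features split by mean level into 4 groups of like size, the median log2 ratio ran from -0.55 in the group of the lowest level to 0.10 in that of the highest, with 87, 19, 11 and 12 lower calls and 0, 14, 26 and 34 higher ones. Split by length in the same way, the medians ran from -0.21 in the shortest group to -0.08 in the longest. The part that depth, length and the ribosomal RNA share have in these ratios was not tested. In a bulk sample, fewer cells of a type and less RNA per cell cannot be told apart.

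**Figure D1:**
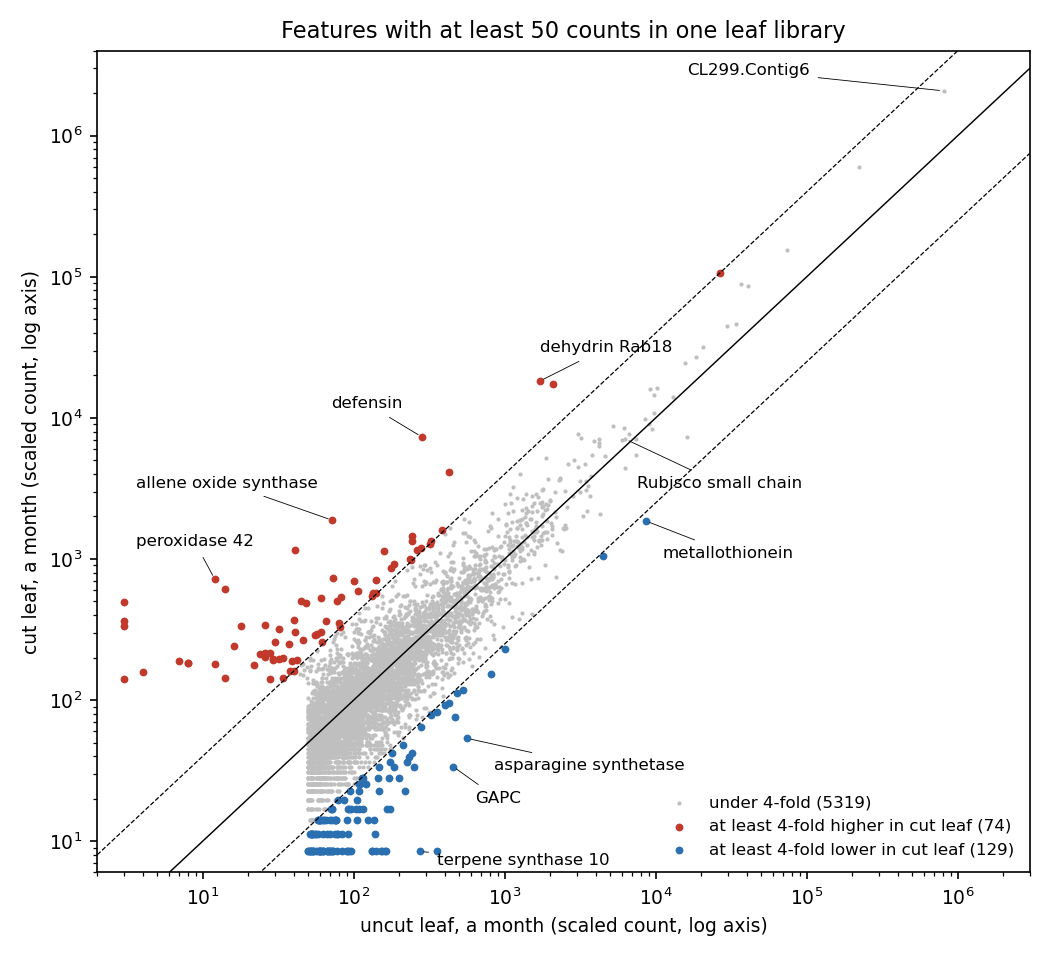
Scaled counts of the 5522 features read, uncut leaf on the x axis and cut leaf on the y axis, both log axes, with the lower library drawn at no less than 3 counts. The solid line marks equal levels and the dashed lines 4-fold; 74 features lie above the upper dashed line and 129 below the lower one, most of the latter at low counts.

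Proteins of water shortage made up the group with the highest median. Dehydrins and late embryogenesis abundant (LEA) proteins are water-loving proteins that build up as cells dry or cool and shield membranes and enzymes. Of 12 features read in this list, 4 were at least 4-fold and 8 at least 2-fold higher in cut leaf and none lower by 2-fold, and the median log2 ratio was 1.31 against -0.16 for all features. Dehydrin Rab18 (CL1434.Contig2) had 6467 counts in cut and 1705 in uncut leaf, a 10.7-fold higher level [10.1, 11.3]; here and below, brackets give the 95% interval of a ratio of counts, which covers counting error only. It was the feature with the most counts among the described nuclear features called higher. The LEA protein CL253.Contig1 had 88 and 37 counts (6.70-fold higher), a cold-regulated protein (CL1389.Contig1) 567 and 387 (4.13-fold) and dehydrin COR410 (Unigene4074) 351 and 241 (4.10-fold). Below the 4-fold limit, LEA2 (CL837.Contig4, 2718 and 3040 counts) and dehydrin ERD14 (Unigene1416, 1028 and 1088), were 2.52-fold and 2.66-fold higher. The lowest log2 ratios of the list were those of an LEA feature named after the Arabidopsis locus At1g64065 (Unigene10701, -0.86), a second of that name (Unigene8401, -0.11) and a Lea14 homolog (Unigene9163, -0.02).

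Levels of these features were high at a month and low at 4 days. Rab18 had 18217 scaled counts in cut and 1705 in uncut leaf at a month, against 14.5 and 42 in cut and uncut leaf at 4 days. In rhizome it had 2711 in cut and 283 in uncut explants at a month, and 3.92 and 12.6 at 4 days. In uncut rhizome at 4 days, the shallowest library after scaling, 12.6 scaled counts are 1 count, so levels near it there carry no order. Cut was above uncut at a month in both tissues and below it in leaf at 4 days. Over the whole list the scaled sum was 41460 in cut and 11538 in uncut leaf at a month, 507 and 742 in leaf at 4 days, and 7758 and 3674 in rhizome at a month. COR410 did not share the difference in rhizome, where it had 663 scaled counts in cut and 755 in uncut explants at a month.

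Enzymes of the raffinose family, sugars that accumulate with dehydrins in drying or chilled leaves, were higher too, though under 4-fold. They were picked after their values were seen. Galactinol synthase, which makes the galactosyl donor, had 1833 and 1866 counts (Unigene10239, 2.77-fold higher [2.59, 2.95]) and 318 and 275 counts (Unigene10240, 3.26-fold). Raffinose synthase (Unigene9471), which passes the galactosyl group to sucrose, had 687 and 541 (3.58-fold [3.19, 4.01]). A further feature of that name (Unigene9894) ran the other way with 5 and 70 counts (4.97-fold lower [2.03, 15.8]). The main galactinol synthase had 5164 and 1866 scaled counts in cut and uncut leaf at a month, 1963 and 411 in rhizome at a month, 56.3 and 148 in leaf at 4 days, and 1.96 and 0 in rhizome at 4 days. Of 31 sugar features read, 1 was at least 4-fold higher and 1 lower, with a median of -0.14.

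**Figure D2:**
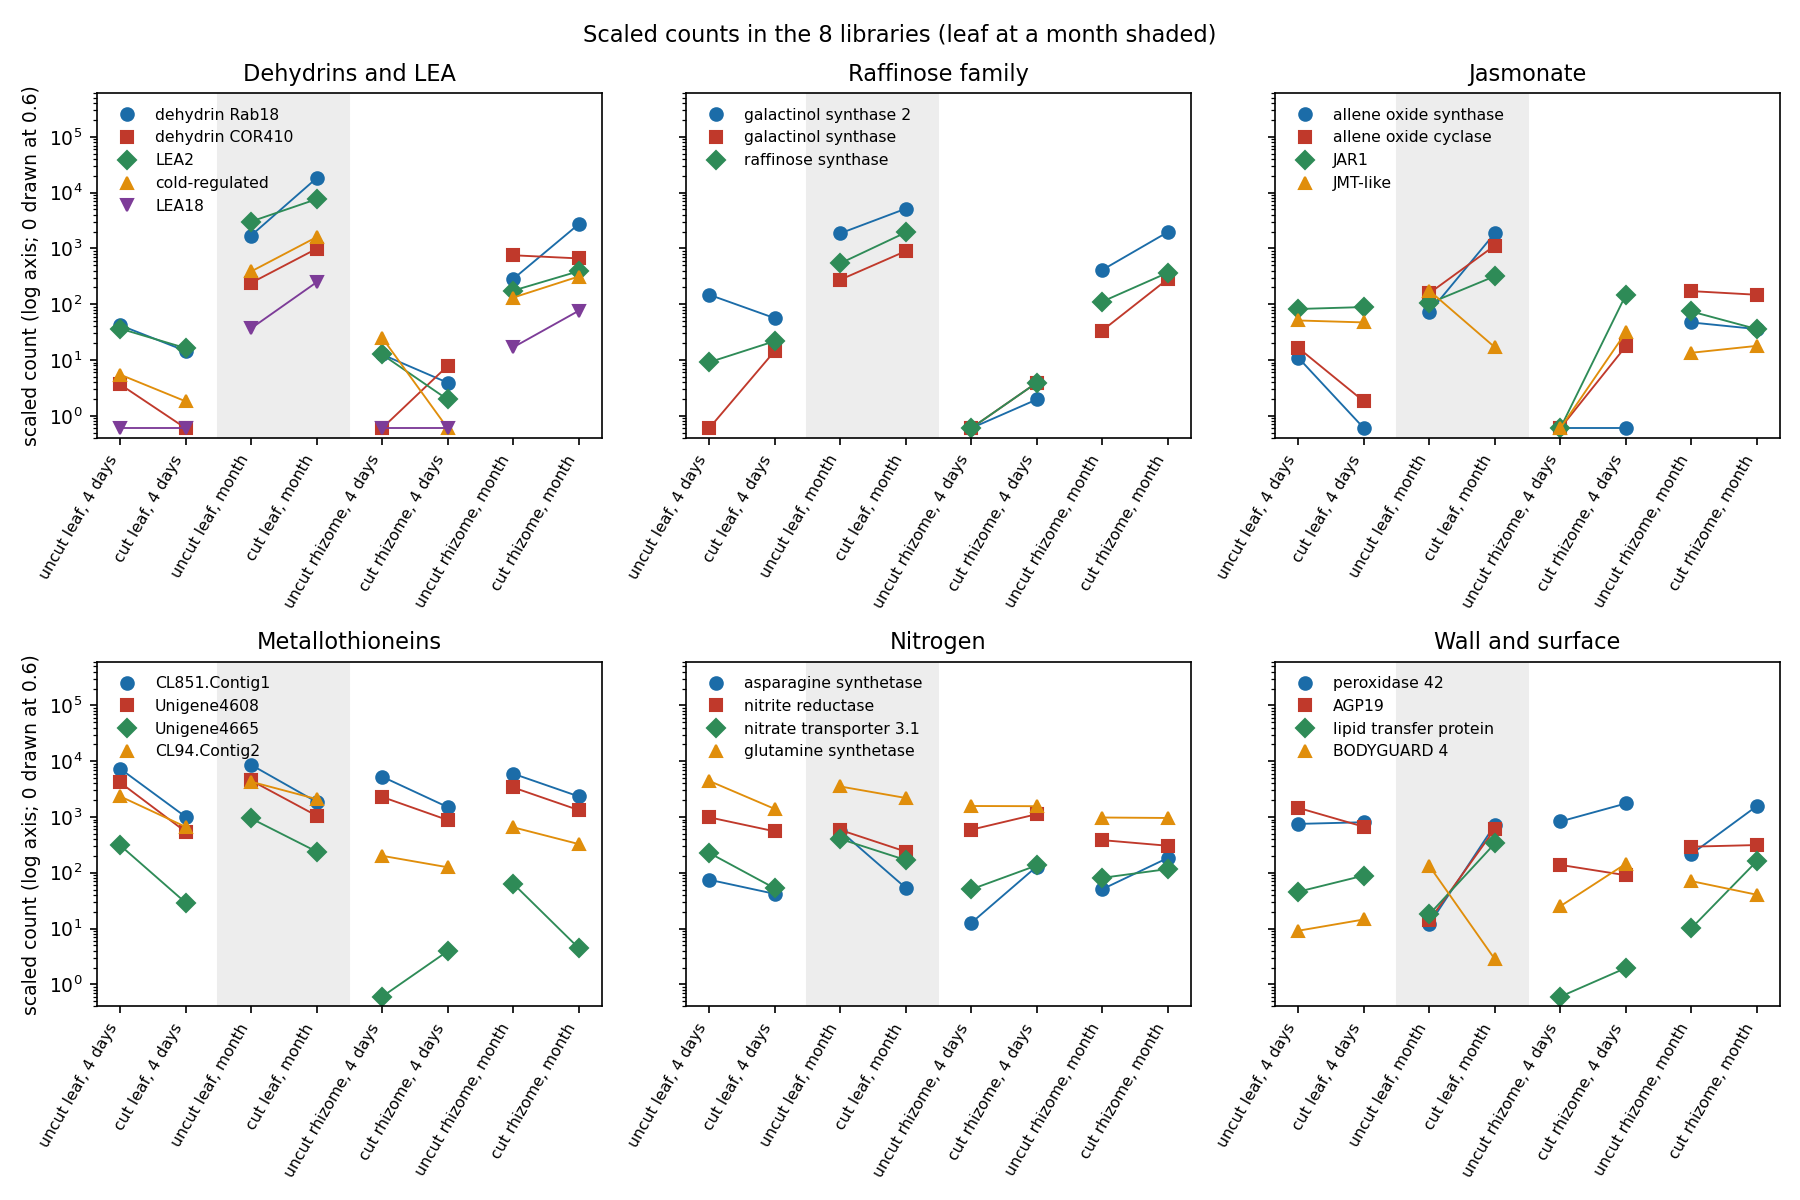
Scaled counts (log axis, 0 drawn at 0.6) of selected features in the 8 libraries, with lines joining uncut and cut of the same tissue and time and leaf at a month shaded. Dehydrins, LEA proteins and raffinose enzymes are high at a month and higher in cut than in uncut leaf, metallothioneins are lower in cut leaf at both times, and peroxidase 42 and AGP19 have their lowest level in uncut leaf at a month.

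Features of jasmonate enzymes ran in both directions. Synthesis runs from lipoxygenase through allene oxide synthase and allene oxide cyclase to 12-oxophytodienoate reductase; JAR1 then joins jasmonate to isoleucine, the active form, and a methyltransferase diverts it to the volatile methyl ester. Of 17 features read, 2 were at least 4-fold higher and 2 at least 4-fold lower, 6 and 3 by 2-fold, and the median was 0.84. Allene oxide synthase (Unigene5276) had 668 counts in cut and 72 in uncut leaf (26.1-fold higher [20.5, 33.8]), and allene oxide cyclase (CL2362.Contig1) had 401 and 158 (7.15-fold [5.93, 8.65]). The 2 contigs of JAR1 had 113 counts each in cut and 104 and 106 in uncut leaf, 3.06-fold higher for CL1830.Contig1. Both contigs of a jasmonate O-methyltransferase-like enzyme were lower, CL2553.Contig1 with 6 and 175 counts (10.4-fold [4.66, 28.6]) and CL2553.Contig2 with 10 and 144 (5.11-fold [2.70, 10.9]). Within a step, 12-oxophytodienoate reductases ranged from -1.47 (Unigene9247) to 0.95 (CL534.Contig3) on the log2 scale and lipoxygenases from -0.35 (Unigene2517) to 1.21 (Unigene8396).

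Allene oxide synthase stood out in cut leaf at a month. Its scaled counts were 1882 there and 72 in the uncut partner. At 4 days, cut leaf had 0 and uncut leaf 11.0. The pairs of rhizome had 35.9 and 47.2 at a month, and 0 in both libraries at 4 days. Allene oxide cyclase had 1130 and 158 in leaf at a month, 1.82 and 16.4 in leaf at 4 days, and 148 and 172 in rhizome at a month. In rhizome at 4 days it had 17.6 and 0. Both enzymes thus had their highest level of the 8 libraries in cut leaf at a month.

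The abscisic acid list, with 14 features read, had none past 4-fold, 1 higher and 1 lower by 2-fold and a median of -0.24, close to that of all features. The higher feature was 9-cis-epoxycarotenoid dioxygenase (Unigene10574), the enzyme that sets the rate of abscisic acid synthesis, with 174 and 157 counts (3.12-fold [2.50, 3.90]). Abscisic acid 8'-hydroxylase (Unigene7284), which breaks the hormone down, had 39 and 217 counts, a log2 ratio of -0.98. Protein phosphatase 2C 6 (CL2598.Contig2), a brake on the response, had 172 and 1073 (log2 -1.15). Of 41 ethylene and ERF features, 1 was at least 4-fold higher, the ABR1-like factor Unigene6841 with 329 and 185 counts (5.01-fold [4.17, 6.03]), 8 were higher and 2 lower by 2-fold, and the median was 0.11. ABR1-like factors take part in abscisic acid responses in Arabidopsis. This feature had no count in any of the 4 libraries at 4 days.

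Among 39 defence features, 3 were at least 4-fold higher and 1 lower, with a median of 0.12. A defensin (CL1025.Contig2), a small cysteine-rich antimicrobial peptide, had 2605 counts in cut and 282 in uncut leaf (26.0-fold higher [23.0, 29.5]). Its scaled counts across libraries were 7338 and 282 in cut and uncut leaf at a month, 728 and 3321 in leaf at 4 days, 4446 and 2053 in rhizome at a month and 2564 and 3672 in rhizome at 4 days. Uncut leaf at a month held the lowest of these 8 levels and cut leaf at a month the highest. A glucan endo-1,3-beta-glucosidase (CL1184.Contig2), of the enzymes that cut callose and fungal walls, had 132 and 40 counts (9.30-fold). A chitinase-like protein (CL347.Contig2) had 67 and 39 (4.84-fold), and the 4 contigs of its cluster (CL347) summed to 230 and 202, a log2 ratio of 1.68. The 1 lower feature was a protease inhibitor (Unigene11035) with 4 and 79 counts (7.01-fold [2.63, 26.4]), and acidic endochitinase (Unigene1410) and pathogenesis-related protein 1 (Unigene8216) had log2 ratios of -1.58 and -1.44.

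Several of the largest ratios belonged to wall and surface proteins. Peroxidase 42 (CL1585.Contig2), a secreted class III peroxidase, had 256 counts in cut and 12 in uncut leaf (60.1-fold higher [33.8, 118]). A lysine-rich arabinogalactan protein (AGP19, CL403.Contig2) had 216 and 14 (43.5-fold [25.3, 80.8]), and both contigs of its cluster (CL403) summed to 219 and 44, a log2 ratio of 3.81. The gp1-like, proline-rich wall feature Unigene5358 had 119 and 0, at least 112-fold higher at 3 counts for the empty library, and a more abundant one of the same name, Unigene6546, had 1461 and 427 (9.64-fold). A lipid transfer protein (Unigene9203) had 129 and 1 counts, a ratio of 363 [64.1, 14463], and a second (Unigene299) 119 and 18 (18.6-fold [11.3, 32.5]). Lipid transfer proteins carry lipids to the cuticle. In the other direction, BODYGUARD 4 (Unigene2990), of a family that builds the cuticle in Arabidopsis, had 1 and 132 counts, a ratio of 46.9 [8.27, 1865], a GDSL lipase (Unigene17965) 4 and 83 (7.37-fold) and a glycine-rich wall protein (Unigene3231) 3 and 67, a ratio of 7.93 [2.60, 39.4].

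As whole lists these groups were mixed. Of 74 structural wall features, 2 were at least 4-fold higher and 4 lower, 12 and 10 by 2-fold, with a median of 0.22. That list leaves out nearly all features named gp1: 23 were read under that name, a group picked after the values were seen, 2 at least 4-fold higher and 0 lower, with a median of 1.23. BODYGUARD 4 is outside the lists too. Of 28 lipid transfer, cutin and wax features, 3 were at least 4-fold higher and 1 lower, while 4 were higher and 6 lower by 2-fold, and the median was -0.44. Wall loosening had 0 higher and 1 lower of 11, a xyloglucan endotransglucosylase (Unigene6618) with 0 and 60 counts, at least 7.10-fold lower.

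For some of these features the uncut leaf library at a month was the low one in the series. Peroxidase 42 had 12 scaled counts there against 216 to 1744 in the other 7 libraries, and the level in cut leaf, 721, lay inside that range. Formin-like protein 20 (Unigene122), an actin-nucleating protein, had 2 there and 141 to 1372 elsewhere. The lipid transfer protein Unigene9203 had 1 there and 157 to 726 elsewhere. Over all 74 higher features, uncut leaf at a month was the lowest of the 4 leaf libraries in 33, and cut leaf at a month was the highest in 54; among all 5522 features these positions held in 637 and 1407. Since the size rule chose features by these same libraries, nothing is read from the difference.

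Tubulins and kinesins, of the microtubule system, lay mostly above the median of all features. Of 19 tubulin and kinesin features, 3 were at least 4-fold higher and none lower, the median was 0.42, and 18 of 19 lay above the median of all. The tubulin beta-1 contigs CL2623.Contig4 and CL2623.Contig1, subunits of microtubules, had 86 and 16 counts (15.1-fold [8.81, 27.7]) and 70 and 34 (5.80-fold), and the cluster (CL2623) had 181 and 61, a log2 ratio of 3.06. A microtubule-associated MAP70-2-like protein (Unigene7019) had 50 and 28 (5.03-fold). Tubulin beta-1 (CL2623.Contig4) was above its uncut partner in all 4 pairs, with scaled counts of 596 and 300 in leaf at 4 days, 1165 and 431 in rhizome at a month and 907 and 415 in rhizome at 4 days. Of 14 histone and DNA replication features, 9 lay above the median of all, 1 was at least 4-fold higher (histone H1-like Unigene290, 77 and 26 counts, 8.34-fold) and the median was 0.67. The most abundant, histone H3.3 (Unigene9137, 619 and 2520 counts), had a log2 ratio of -0.53. The marker list for meristem and dividing cells summed to 10059 scaled counts in cut and 8426 in uncut leaf, with 33 of 108 features at 0 in cut and 28 in uncut leaf; its part in these ratios was not tested.

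Aquaporins, the water channels of the plasma membrane (PIP) and of the vacuole (TIP), all lay above the median of all features, 18 of 18, with a median of 0.55. TIP2-1 (CL1682.Contig1), a vacuolar channel, had 108 and 41 counts (7.42-fold [5.14, 10.9]), and a PIP-type 7a feature (CL496.Contig1) 195 and 132 (4.16-fold). The 5 contigs of that last cluster summed to 3501 and 7008 counts, a log2 ratio of 0.49, so the 4-fold ratio belonged to 1 contig. The most abundant, PIP1-4 (CL496.Contig5, 1952 and 3813 counts) and TIP1-2 (Unigene10184, 1779 and 2889), had log2 ratios of 0.53 and 0.79. With library size alone as the scale every ratio lies 0.79 lower, so medians under that value are read only against the median of all features.

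No feature of the 21 in the auxin list passed 4-fold, and its median was -0.08. Outside that list, 2 IAA-amino acid hydrolases, which free auxin from its storage form, were higher, Unigene4112 with 128 and 66 counts (5.46-fold [4.03, 7.47]) and Unigene9360 with 251 and 141 (5.02-fold [4.06, 6.21]). All 6 features of that name had log2 ratios from -0.51 to 2.45. The cytokinin, gibberellin, homeobox and cell cycle lists had no feature past 4-fold, with medians of -0.48, -0.20, -0.12 and -0.27. With the depth-matched filter, 0 of the 7 cytokinin features were left. The gibberellin, homeobox and cell cycle medians were then -0.20, -0.12 and 0.35, against 0.05 for all features. The gibberellin-regulated protein 3 contigs CL1018.Contig1 (69 and 584 counts) and CL1018.Contig2 (62 and 607) had log2 ratios of -1.59 and -1.80.

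**Figure D3:**
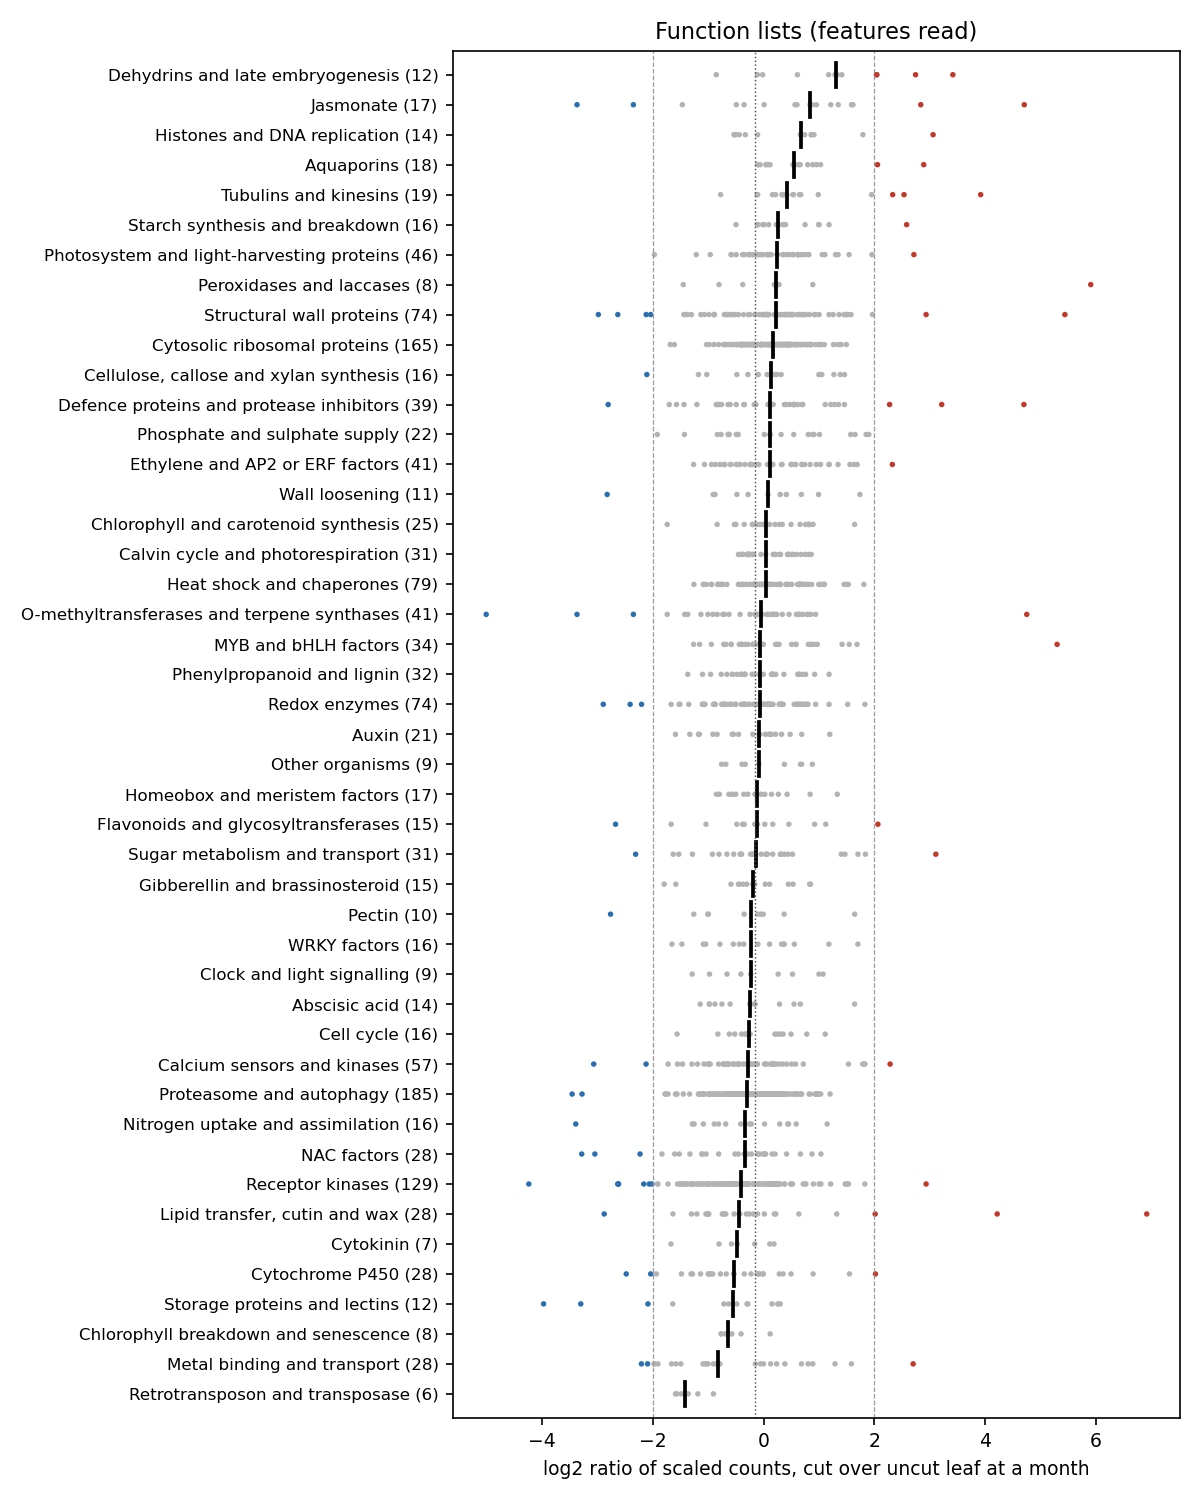
Log2 ratio of scaled counts, cut over uncut leaf at a month, for the features read in each function list (number in parentheses), with the list's median as a black bar. The dotted line is the median of all features, -0.16, the dashed lines are 4-fold, and colour marks features past 4-fold; dehydrins and jasmonate have the highest medians, metal binding and retrotransposons the lowest.

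Photosynthesis genes rarely passed 4-fold. Of 46 photosystem and light-harvesting features, 1 was at least 4-fold higher and none lower, with a median of 0.25. Of these, 34 lay above the median of all features and 12 below. Light-harvesting proteins, which bind chlorophyll around the photosystems, lay mostly at the upper end. Of 19 features named chlorophyll a-b binding, a group picked after the values were seen, 7 were at least 2-fold higher and 1 lower, with a median of 0.70. Unigene3503 had 191 and 82 counts (6.56-fold [5.04, 8.61]). The 3 most abundant of the photosystem list, all chlorophyll a-b binding, had lower log2 ratios. They were 0.76 (Unigene3502, 783 and 1304 counts), 0.08 (CL1624.Contig2, 608 and 1619) and -0.10 (CL555.Contig3, 519 and 1566). Plastocyanin (CL1974.Contig1), the copper protein that carries electrons to photosystem I, lay at the lower end with 16 and 177 counts (3.93-fold lower [2.35, 7.02]). Its cluster (CL1974) summed to 28 and 212 counts, a log2 ratio of -1.43. None of the 31 Calvin cycle and photorespiration features passed even 2-fold, and their median was 0.04. The most abundant Rubisco small chain (Unigene10190) had 2511 and 6283 counts and Rubisco activase (CL1693.Contig1) 1085 and 3465, log2 ratios of 0.17 and -0.18. For both, the levels in uncut leaf at 4 days were higher than in either library at a month, 21702 and 8130 scaled counts.

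The starch list had 1 of 16 features past 4-fold, with 15 of 16 above the median of all features and a median of 0.25. Granule-bound starch synthase 1 (Unigene8022), which makes amylose, had 519 and 244 counts (5.99-fold [5.14, 7.01]). The words of the list miss phosphoglucan, water dikinase (Unigene108), an enzyme of starch breakdown, which had 57 and 40 counts (4.01-fold higher). The starch synthase was above its uncut partner in the other 3 pairs too, with scaled counts of 1232 and 639 in leaf at 4 days, 1833 and 1304 in rhizome at a month and 2522 and 616 in rhizome at 4 days. Small subunits of ADP-glucose pyrophosphorylase, the first enzyme of starch synthesis, had log2 ratios from 0.35 to 1.18 over 5 contigs of 1 cluster (CL297), which summed to 481 and 888 counts (log2 0.61). Beta-amylase 1 (CL2263.Contig1), which breaks starch down, had 938 and 1319 counts, 2.00-fold higher in cut leaf after scaling.

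Sulphate reduction and iron storage each had features 2- to 4-fold higher, chosen after their values were seen. Adenylylsulfate reductase, which commits sulphate to cysteine, had 249 and 188 counts (CL797.Contig3, 3.73-fold), 310 and 242 (CL797.Contig4, 3.61-fold) and 303 and 287 (Unigene6836, 2.97-fold), while the reductase-like 5 feature CL1604.Contig2 had 6 and 64 (log2 -1.92). None of the 22 phosphate and sulphate features passed 4-fold. Ferritin, the iron store of plastids, had 865 and 997 counts (Unigene4606, 2.44-fold) and 82 and 77 (Unigene4607, log2 1.58).

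Metal-binding proteins had the lowest median of the lists with more than 10 features, -0.82 over 28 features, with 2 at least 4-fold lower and 1 higher, 12 lower and 3 higher by 2-fold. Metallothioneins, small cysteine-rich proteins that hold copper and zinc, account for both 4-fold calls. CL851.Contig1 had 660 counts in cut and 8593 in uncut leaf (4.62-fold lower [4.27, 5.01]) and Unigene4608 had 374 and 4509 (4.28-fold [3.85, 4.77]). Unigene4665 (85 and 940 counts) was 3.93-fold lower, and CL94.Contig2 (743 and 4283) and CL94.Contig1 (409 and 2313) 2.05-fold and 2.01-fold. The remaining feature of that name, CL1414.Contig2, had a log2 ratio of -0.06, whose sign depends on the scale.

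The same metallothioneins were lower in cut explants in the other pairs. CL851.Contig1 had 1859 scaled counts in cut and 8593 in uncut leaf at a month, 1006 and 7336 in leaf at 4 days, 2339 and 5970 in rhizome at a month, and 1505 and 5281 in rhizome at 4 days. Unigene4608 had 1054 and 4509, 543 and 4148, 1331 and 3381, and 882 and 2288 in the same order. In both features every cut library lay below every uncut library. Among 12 features named heavy metal-associated, a group picked after the values were seen, 5 were at least 2-fold lower and 1 was higher, CL903.Contig1 with 180 and 78 counts (6.50-fold).

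Nitrogen assimilation had 1 of 16 features at least 4-fold lower and none higher, 4 lower and 1 higher by 2-fold, and a median of -0.33. Asparagine synthetase (CL2562.Contig1), which makes the amide that exports nitrogen from ageing or dark leaves, had 19 counts in cut and 563 in uncut leaf (10.5-fold lower [6.67, 17.6]). It had 53.5 and 563 scaled counts in cut and uncut leaf at a month, 41.8 and 74.9 in leaf at 4 days, 184 and 50.6 in rhizome at a month, and 129 and 12.6 in rhizome at 4 days. Uncut leaf at a month held the highest of the 8 levels. Nitrite reductase (CL1914.Contig2), which makes ammonium in the plastid, had 85 and 585 counts (2.44-fold lower), the nitrate transporter component 3.1 (Unigene380) 60 and 404 (2.39-fold) and the most abundant glutamine synthetase (CL2225.Contig2) 777 and 3520 (1.61-fold [1.49, 1.74]).

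Genes tied to leaf ageing lay below the median of all features as well, without passing the size rule. In the list of chlorophyll breakdown and senescence, 7 of 8 features were below it, none passed 2-fold and the median was -0.64. Pheophytinase (Unigene3674), which strips phytol from pheophytin, had 165 and 751 counts (log2 -0.69), the pheophorbide oxygenase-like Unigene4640 149 and 663 (-0.66), STAY-GREEN (CL163.Contig4) 86 and 373 (-0.62) and a cysteine proteinase (Unigene8163) 459 and 2203 (-0.77). The senescence markers together summed to 1566 scaled counts in cut and 2294 in uncut leaf. Isocitrate lyase (Unigene16883), of the glyoxylate cycle that turns fat into sugar, had 0 and 153 counts, at least 18.1-fold lower.

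Among 28 NAC transcription factors, 3 were at least 4-fold lower and none higher, 10 lower and 1 higher by 2-fold, and the median was -0.34. Over all features read, 2.34% were lower and 1.34% higher by 4-fold, and 13.0% and 5.89% by 2-fold. Both NAC100-like features were lower, CL2382.Contig1 with 3 and 70 counts, a ratio of 8.28 [2.72, 41.1] (cluster CL2382, 6 and 78, log2 -2.21), and Unigene11251 with 4 and 53 (4.70-fold [1.73, 17.9]). Of 3 features named NAC29, a factor with a role in leaf ageing, Unigene2218 (19 and 154 counts) and Unigene4329 (60 and 348) were 2.88-fold and 2.06-fold lower, CL1684.Contig2 (82 and 227) had a log2 ratio of 0.03, and NAC21/22 (Unigene5991, 96 and 681) 2.52-fold. NAC82 (CL1279.Contig1) had 8 and 220 counts (9.76-fold lower), but the 3 contigs of its cluster summed to 400 and 876, a log2 ratio of 0.36.

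The list of receptor kinases, which read signals at the cell surface, had 7 of 129 features at least 4-fold lower and 1 higher. By 2-fold 34 were lower and 8 higher, and the median was -0.42. The 1 higher feature, a leucine-rich repeat extensin-like protein 5 (Unigene483, 76 and 28 counts), is a wall protein that the structural wall list also holds. The words of the list also took in other kinases, such as the SAPK2-like Unigene1668 of the abscisic acid list. Of all features read, 2.34% were lower and 1.34% higher by 4-fold, and 13.0% and 5.89% by 2-fold. The largest ratio of the list was that of a ZmPK1-like kinase (Unigene6466) with 2 and 160 counts, 28.4 [7.73, 237]. A leucine-rich repeat kinase (Unigene5046) had 27 and 471 (6.19-fold [4.20, 9.50]). These are low features, with a median mean level of 92.8 scaled counts; with the depth-matched filter 52 were left, 3 lower and 1 higher, and the median was -0.11 against 0.05 for all. The 12 storage proteins and lectins had 3 lower and none higher, among them mannose-specific lectins (CL2458.Contig1, 6 and 167 counts, 9.88-fold lower, and Unigene4905, 40 and 480, 4.26-fold), sugar-binding proteins that many monocots store. A jacalin-related lectin (Unigene9321) had 2 and 133, a ratio of 23.6 [6.41, 197]. The storage marker list summed to 1327 scaled counts in cut and 1918 in uncut leaf, with 20 of 43 features at 0 in cut and 13 in uncut leaf.

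Secondary metabolism held single large ratios. Terpene synthase 10 (CL507.Contig3), of the enzymes that make volatile terpenes, had 0 counts in cut and 273 in uncut leaf, at least 32.3-fold lower, and 115 scaled counts in uncut against 10.9 in cut leaf at 4 days. The 3 contigs of its cluster (CL507) summed to 15 and 297 counts, a log2 ratio of -2.81. An ABC transporter (ABCG36, Unigene6829), a family that exports defence compounds, had 0 and 152, at least 18.0-fold lower, while in leaf at 4 days it had 133 in cut and 67.6 in uncut. Cytochrome P450 CYP73A100 (CL1486.Contig2), a cinnamate hydroxylase, had 4 and 63 counts (5.59-fold lower), but of 32 phenylpropanoid and lignin features none passed 4-fold and the median was -0.07. Among 28 P450 features, 1 was higher and 2 were lower, with a median of -0.54. These too are low features, with a median mean level of 92.3 scaled counts. With the depth-matched filter 11 were left, 1 higher and 0 lower, and the median was -0.12 against 0.05 for all. On the higher side were a flavanone 3-dioxygenase (Unigene8785, 64 and 12 counts, 15.0-fold [8.04, 30.6]) and chalcone synthase 1 (CL371.Contig1, 92 and 62, 4.18-fold), both of flavonoid synthesis, and the MYB39 factor (Unigene19583, 56 and 4, 39.4-fold [14.6, 150]). The cluster of the chalcone synthase (CL371) summed to 143 and 128 counts, a log2 ratio of 1.65, under 4-fold. The list of flavonoids and glycosyltransferases, which does not hold the flavanone dioxygenase, had 1 of 15 features higher and 1 lower, 2 and 3 by 2-fold, and a median of -0.12. Its lower feature, UDP-glycosyltransferase 71K1 (CL2220.Contig1), had 2 and 54 counts, a ratio of 9.58.

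Some of the largest ratios belonged to 1 contig of a cluster and not to the cluster. Going by their IDs, 29 of the 74 higher and 62 of the 129 lower features are contigs of clusters with more than 1 contig, among which reads of near-identical copies can be split. With all contigs of the cluster summed, 19 of the 29 and 24 of the 62 stayed past 4-fold, 3 and 15 were under 2-fold, and 0 and 4 ran the other way. Phosphoenolpyruvate carboxylase (CL1320.Contig1), which fixes bicarbonate, had 1 and 164 counts, a ratio of 58.2 [10.3, 2313], and its cluster 102 and 438 (log2 -0.61). Cytosolic glyceraldehyde-3-phosphate dehydrogenase (CL500.Contig1), of glycolysis, had 12 and 454 (13.4-fold lower [7.61, 26.2]), and its cluster 1165 and 3613 (log2 -0.14). Methionine synthase (CL643.Contig4) had 67 and 7 counts (27.0-fold higher), and its cluster 1091 and 2219 (log2 0.47). The sucrose-cleaving enzyme sucrose synthase (CL1148.Contig2) had 187 and 61 (8.64-fold), and its cluster 314 and 628 (log2 0.49). The clusters of Rab18 (6504 and 1717 counts), peroxidase 42 (256 and 12), the defensin (2605 and 282), the metallothionein CL851 (679 and 8740) and asparagine synthetase (19 and 568) kept log2 ratios of 3.42, 5.91, 4.70, -2.19 and -3.41.

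Large housekeeping lists had few features past 4-fold, with medians on either side of that of all features, -0.16. Above and below that median lay 115 and 49 cytosolic ribosomal proteins, 54 and 25 heat shock features, and 73 and 112 of proteasome and autophagy. None of 165 cytosolic ribosomal proteins and none of 79 heat shock proteins and chaperones passed 4-fold, with medians of 0.16 and 0.03, and proteasome and autophagy had 0 higher and 2 lower of 185, with a median of -0.29. Redox enzymes had 0 higher and 3 lower of 74 (median -0.07) and calcium sensors and kinases 1 higher and 2 lower of 57 (-0.29). WRKY factors, with 16 features read, had none past 4-fold, 2 higher and 4 lower by 2-fold, and a median of -0.23.

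Set beside the other cut and uncut pairs, which share no library with this one, the called features took the following positions. Of the higher features, 62 had at least 10 counts in a rhizome library at a month, and 43 of these were above their uncut partner there, 26 by 2-fold (46.6% and 11.6% of all features). In leaf at 4 days, 27 of 53 were above (38.8% of all features), with 12 above and 12 below by 2-fold (11.5% and 29.4% of all features). In rhizome at 4 days 22 of 46 were above, 11 of them by 2-fold (56.0% and 24.9%). Of the lower features, 66 of 94 were below their uncut partner in leaf at 4 days, 53 of them by 2-fold (61.2% and 29.4% of all features), 41 of 61 in rhizome at a month (53.4%) and 32 of 59 in rhizome at 4 days (44.0%). With 1 library in each group these counts describe the libraries and were not tested.

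**Figure D4:**
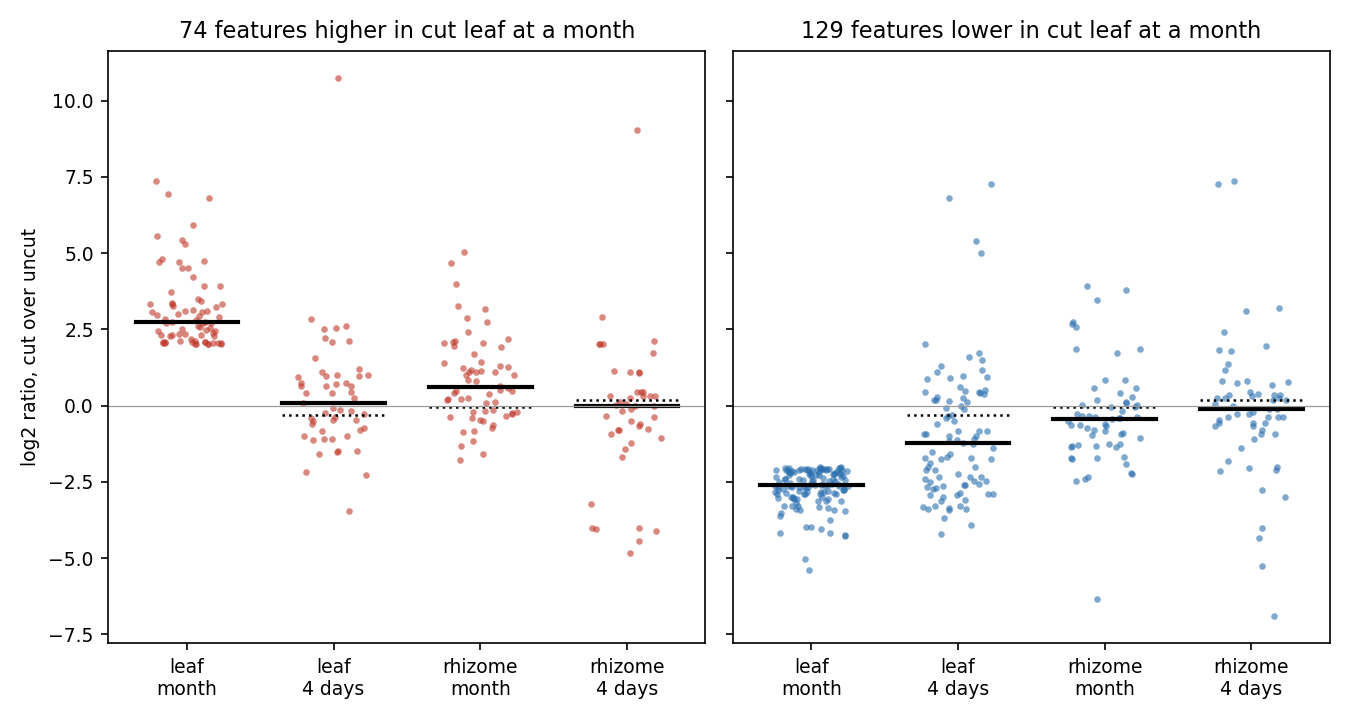
Log2 ratio, cut over uncut, of the 74 higher and 129 lower features in each of the 4 pairs, for features with at least 10 counts in the pair; solid bars are their medians and dotted bars the median of all features in that pair. The spread in the other pairs crosses 0 in each, and the higher features have their highest median outside leaf at a month in rhizome at a month, 0.62.

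Retrotransposon-derived features, mobile elements copied through RNA, had the lowest median of all lists, -1.43 over 6 features, with 5 of 6 at least 2-fold lower in cut leaf and none past 4-fold. Their scaled sum was 623 in cut and 1640 in uncut leaf at a month. In leaf at 4 days the order was the other way, 18240 in cut and 194 in uncut, as it was in rhizome, 7968 and 880 at a month and 16504 and 365 at 4 days. Of the 6, 3 are contigs of 1 cluster (CL30), whose 8 contigs summed to 230 and 1661 counts in leaf at a month (log2 -1.36).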

How the data were processed

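RNA of leaf was sequenced in 1 library of cut and 1 of uncut explants at a month, of 8 libraries in the series. The deposited files give, for each assembled feature, its length, an expected count and FPKM. Expected counts were estimated by the authors with RSEM on Bowtie2 alignments, as the submitters' processing notes name these tools without versions; the assembly is not described in the sources used here. FPKM values, deposited by the authors beside the counts and scaled by them for length and library size, served as an alternative only. Their log2 ratios were shifted to have the same median as the reported ratios.

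Expected counts were rounded to whole numbers. Of 44 features whose nucleotide match names ribosomal RNA, 35 were left out and 9 that code for proteins were kept; 215 features were classed as organelle and 24386 as nuclear by their descriptions. Libraries were scaled by TMM (edgeR 4.0.16, R 4.3.3) with uncut leaf at a month as the reference, and DESeq2 1.42.0 size factors were an alternative. Other steps used Python 3.11.15, numpy 2.4.6, scipy 1.17.1 and pandas 2.3.3. With 1 library a group no test across features was run and no p-value is given; counts of features use a fold of 4, a minimum of 50 counts and a floor of 3 counts. Where the lower library had 0 counts, the fold is a bound against that floor. With 1 to 3 counts the plain ratio is given. All log2 ratios use the floor. Intervals of ratios are exact binomial 95% intervals conditional on the sum of both counts. They were run on simulated counts drawn from the model they assume, with the scale known. That run cannot show how well they hold in these libraries. PCR copies are not independent molecules, so all intervals and floors cover counting error only.

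The 45 function lists are word patterns on the deposited descriptions; they and the features described were chosen with earlier results of these data known, and some patterns were corrected after the descriptions and values were seen. Named features are the 12 largest described ratios in each direction, up to 4 past the limit in each list and direction, and the 3 most abundant of a list where fewer than 2 passed; other features named under 4-fold were chosen after their values were seen. Reads were counted on an assembly with no strand information given, so overlapping or near-identical features cannot be told apart.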

Additional observations from a re-analysis of the deposited data

Results flagged for a closer look

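Some features past 4-fold in leaf at a month had a ratio past 4-fold in the opposite direction in another pair of cut and uncut libraries. The differences between pairs were not tested, as each pair has 1 library a side. Log2 ratios count the lower library as at least 3 counts. In leaf at a month it had 1 count for CL1320.Contig1 and 0 for CL147.Contig2, and in leaf at 4 days 2 for CL1320.Contig1.

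The defensin CL1025.Contig2 had a log2 ratio of 4.70 in leaf at a month and -2.19 in leaf at 4 days (401 counts in cut and 1818 in uncut). Phosphoenolpyruvate carboxylase CL1320.Contig1 had -4.28 and 5.01 in leaf at 4 days (97 and 2 counts), and an elongation factor EF-Ts feature, CL147.Contig2, had -3.46 and 2.04 (169 and 41). In leaf at a month the clusters of these 2 had log2 ratios of -0.61 (CL1320, 102 and 438 counts) and 0.29 (CL147, 81 and 186 counts), so the ratio of the second was not shared by its cluster. The undescribed CL30.Contig3 had -3.07 (-1.36 for its cluster) and 5.40, Unigene3606 had 2.08 and -2.27, and Unigene9618 had 3.36 and -3.47, again in leaf at 4 days.

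The undescribed CL18.Contig6 had -2.13 in leaf at a month (81 counts in cut and 1002 in uncut), 7.26 in leaf at 4 days (3688 and 24) and 3.93 in rhizome at a month (1007 and 88). Its partner in the cluster, CL18.Contig7, had -2.42 (54 and 812), 6.79 (2892 and 26) and 3.80 (798 and 76) in the same order.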

How the results depend on the processing

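Of the 82 named features past 4-fold, 67 stayed past it with library size only, 80 with DESeq2 size factors and 72 with nuclear library size. These scalings shift every log2 ratio by the same amount (-0.79 with library size only), so they could not turn the direction of a feature past 4-fold. With FPKM 81 stayed past it, but the FPKM ratios were first shifted to the reported median, so FPKM did not check the scale. Counts depended on the scale: with library size only, 36 features were higher and 490 lower and the median log2 ratio was -0.94; with nuclear library size 225 were lower and the median was -0.51; with DESeq2 the median was -0.074. The share of calls that were higher was 36.5% as reported, 6.84% with library size only, 18.2% with nuclear library size and 41.2% with DESeq2. They also depended on the filter: at least 20 counts gave 177 higher and 207 lower, at least 200 gave 27 and 22 (median -0.086), no filter gave 551 and 207 (median 0.42), a floor of 10 counts gave 46 lower, and the depth-matched filter, chosen after seeing the data, gave 37 lower (median 0.054). At 2-fold 325 were higher and 716 lower, and at 8-fold 31 and 31. FPKM shifted to the reported median, ribosomal RNA kept, organelle features left out and contigs summed kept both counts within 1.5 times. Without the largest undescribed feature, the nuclear share was 5.89% in cut and 13.0% in uncut leaf. The balance of calls turned with the filter and the floor: lower features outnumbered higher ones as reported and at 2-fold, and higher ones outnumbered lower ones with at least 200 counts, no filter, a floor of 10 counts and the depth-matched filter. The sign of the median over all features turned with no filter and with the depth-matched filter. No paired analysis was possible because each group has 1 library with no replicate number, and no library could be left out.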

Other observations

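Among organelle features, those of the plastid had a higher median than the nuclear ones (-0.16), and those of the mitochondrion did not. Of 43 plastid features read, 36 had log2 ratios above 0, 2 were at least 4-fold higher and 2 lower in cut leaf, and the median was 0.60. Of all 5522 features, 2266 had log2 ratios above 0, and 1.34% were at least 4-fold higher and 2.34% lower. Of 27 mitochondrial features, 4 were at least 4-fold higher and 1 lower, with a median of -0.20. NADH dehydrogenase subunit 4 (Unigene8219), of the respiratory chain, had 69 counts in cut and 29 in uncut leaf (6.70-fold higher), and cytochrome c oxidase subunit I (Unigene2701) had 108 and 61 (4.99-fold). Both were lower in cut than in uncut explants in the other 3 pairs. Scaled counts of the first were 67.2 and 144 in leaf at 4 days, 242 and 340 in rhizome at a month and 96.0 and 1597 in rhizome at 4 days. Those of the second were 131 and 234, 426 and 489, and 118 and 2578.

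Glutamate decarboxylase, which makes the signalling compound GABA, had 1 feature in each direction past 4-fold. Unigene11153 had 104 and 57 counts (5.14-fold higher), and CL415.Contig1 had 0 and 73, at least 8.64-fold lower, though the contigs of its cluster summed to a log2 ratio of 0.77. The most abundant feature without ribosomal RNA, CL299.Contig6, has no description and matches the chloroplast genome. Its counts were 737620 for cut and 806578 for uncut leaf, 2.58-fold higher after scaling. The next, Unigene19161, has neither a description nor a clear class and had 213534 and 222976 counts (2.70-fold higher).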
